A study of Rattus norvegicus with 9 samples.

Results

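The protein genes of the cytosolic ribosome were followed in bulk RNA sequencing of rat oligodendrocyte precursor cells (OPCs), the cells that differentiate into the myelinating oligodendrocytes of the brain. Members were chosen by name only: symbols of the form Rpl or Rps with a number and an optional a, x or l, together with Rplp0, Rplp1, Rplp2 and Rpsa. Of 32623 gene rows, 85 matched, under 77 symbols, 48 of the large and 29 of the small subunit. Where a symbol had several rows, the row with the most reads was taken. The cells were primary cultures from wild-type rat brain, kept in differentiation medium with B27, N1 mix and laminin and collected on day 5. Of 9 libraries, 3 were basal, 3 had received 1 µM bavisant and 3 had received 10 µM. Bavisant is an antagonist of the histamine H3 receptor. The lower dose is written in mM in a protocol text and in µM in the sample treatments and the series design, and the latter was used. Each group held 1 library marked P11, 1 marked P13 and 1 marked P14, and what P stands for is not given in the sources used here. Since no source used here ties the numbers to independent cultures or rats, p-values measure only how these libraries spread, which may be technical.

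A cytosolic ribosome joins a small subunit, which reads the messenger RNA, to a large subunit, which forms the peptide bond. Each is built from ribosomal RNA and a large set of proteins, nearly all needed in equal number. The messenger RNAs of these proteins are among the most abundant of a cell and start with a run of pyrimidines, the 5′ terminal oligopyrimidine (TOP) tract, through which mTORC1 signalling controls their translation. Such control acts on protein synthesis and is not read by a count of messenger RNA. Differentiating oligodendrocytes need large amounts of newly made myelin protein.

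The start regions of 59 members could be matched by symbol to 1 RefSeq entry each (build GRCr8). Within 15 bases on each side of the annotated start, 48 of 59 (81.4%) held a C followed by at least 4 more pyrimidines on the transcript strand, against 34.8% of all 33465 promoters. A run of 8 or more was found in 34 of 59 (57.6%), against 8.41% of all promoters. The members below are shown because the results turn on their levels or differences, with the longest such run in capitals and 30 bases each, 5′ to 3′.
Rps15, chr7:10068101-10068130, minus strand: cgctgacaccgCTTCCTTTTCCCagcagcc
Rpl13, chr19:68062499-68062528, plus strand: ctttgcggtgcccgatCCTTTCCgctcggc
Rpl36, chr9:1533765-1533794, plus strand: ctgtccggccgccatcggaaagctgcaggt
Rplp1, chr8:71290858-71290887, minus strand: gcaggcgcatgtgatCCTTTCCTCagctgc
Rplp2, chr1:205975906-205975935, plus strand: CCTTTCgccgccggacgccgccgaggtcgc
Rpl10, chrX:157205835-157205864, plus strand: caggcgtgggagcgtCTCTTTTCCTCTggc
Rpl12, chr3:36661925-36661954, plus strand: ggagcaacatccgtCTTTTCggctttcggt
Rps27, chr2:177964592-177964621, minus strand: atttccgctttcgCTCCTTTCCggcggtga
Rps27l, chr8:76443643-76443672, plus strand: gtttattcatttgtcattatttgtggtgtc
In 7 of these 9 windows a run was found. No run was found for Rpl36 or for Rps27l, which says only that those letters are not in these windows.

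**Figure D1:**
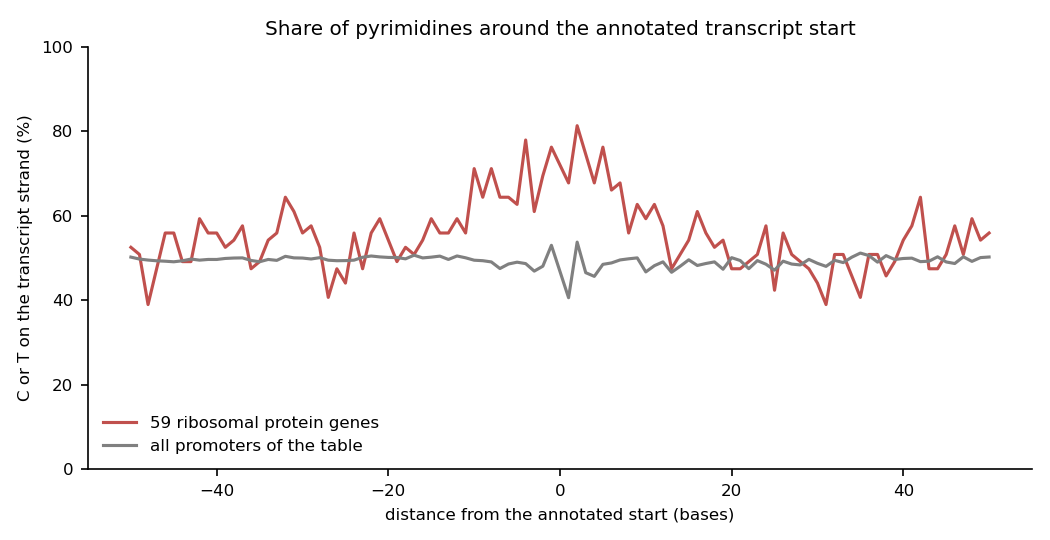
Share of sequences with C or T (percent, vertical axis) at each base from 50 before to 50 after the annotated start (horizontal axis, bases), for 59 ribosomal protein genes (red) and all promoters of the RefSeq table (grey). The members reach 81.4% at the second transcribed base, where all promoters have 53.8%.

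Over the 300 bases of each promoter, from 250 before the start to 50 after it, 19 of 59 members (32.2%) held CCGGAAG on either strand, the core of sites bound by Ets factors, against 8.75% of all promoters. AAGATGG, part of sites bound by YY1, whose first letters can be the last of CCGGAAG, stood in 9 of 59 (15.3%), against 7.01%. TATAAA stood in 7 of 59 (11.9%), against 14.2%. These matches describe the letters and are not binding sites. At 10 µM against basal, the 46 tested members with a pyrimidine run near the start had a median log2 fold change of 0.10 and the 11 without one 0.09.

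Levels were compared between genes per length, as TPM (transcripts of each gene per 1e+06 transcripts), averaged over the 9 libraries. The members had a median of 841 TPM, and 66 of 77 were among the 500 genes with the highest mean TPM. Rpl41, the shortest protein of the ribosome, was highest, with 2715 TPM. Next came Rplp1 with 2306, Rpl19 with 1821, Rplp0 with 1758 and Rpl23a with 1706 TPM. Rplp0, Rplp1 and Rplp2 form the acidic stalk, which recruits translation factors to the large subunit, and Rpl19 and Rpl23a lie near the exit of the peptide tunnel. Rpl41 (2357 to 3074 TPM) lay above Rplp1 (1886 to 2722 TPM) in 9 of 9 libraries, although their ranges overlapped, and Rplp1 lay above Rpl19 (1542 to 1988 TPM) in 9 of 9. Rpl19 lay above Rplp0 (1538 to 1965 TPM) in 5 of 9 libraries, and Rplp0 above Rpl23a (1545 to 1832 TPM) in 5 of 9, so these neighbours did not differ beyond their spread. The 29 small subunit members were between 270 and 1613 TPM with a median of 1008, and the 45 tested large subunit members spread wider, from 1.91 to 2715 TPM with a median of 841.

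The lowest tested members after Rpl10l were Rpl35a with 20.3 TPM, Rpl36a with 118, Rpl8 with 127.5 and Rpl7 with 176. Rpl8 is a core protein near the site of peptide bond formation. Rpl7 was low per length only: its row had 165019 reads over the 9 libraries and a length, read from the ratio of counts to TPM, of 253.6% of that of the median tested gene. Ribosomal protein genes have many processed copies elsewhere in the genome, with which their reads can be shared, and the counting setting for such reads is not given in the sources used here. Of 74 tested members, 11 (14.9%) had whole-number counts in all 9 libraries, against 84.2% of all tested genes. In 6 members other rows of the same symbol held reads: 49.6% of the reads of Rps4x, 49.5% of Rpl7a, 46.9% of Rps10, 42.3% of Rpl21, 33.6% of Rpl32 and 21.9% of Rps27a, which encodes a fusion of ubiquitin and a ribosomal protein. Levels of members that share reads with such copies are uncertain.

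Paralogues that match the naming rule were low beside their partners, except 1. Rpl3l, known from skeletal and heart muscle, had 21 reads over the 9 libraries, with 0 to 8 reads in each, while Rpl3 had 1072 TPM. Rpl39l had 50 reads over the 9 libraries and Rpl10l, known from testis, 1.91 TPM, against 753 TPM for Rpl39 and 1265 TPM for Rpl10. Rps27l, a target of p53 and partner of Rps27, was the exception, with 325.6 TPM, which is 20.2% of the 1613 TPM of Rps27. Rpl38, which is not such a paralogue, had 2.53 reads in all, 0.38 in basal P11 and 2.15 in 10 µM P11. These are fractional counts. Its length, read from the rounded count of 10 µM P11 alone, was 3.04% of that of the median tested gene. Whether its low count comes from the annotation, from shared reads or from the cells was not tested. Rpl3l, Rpl39l and Rpl38 did not pass the filter on low counts, which left 74 of 77 members among the 15321 genes tested.

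**Figure D2:**
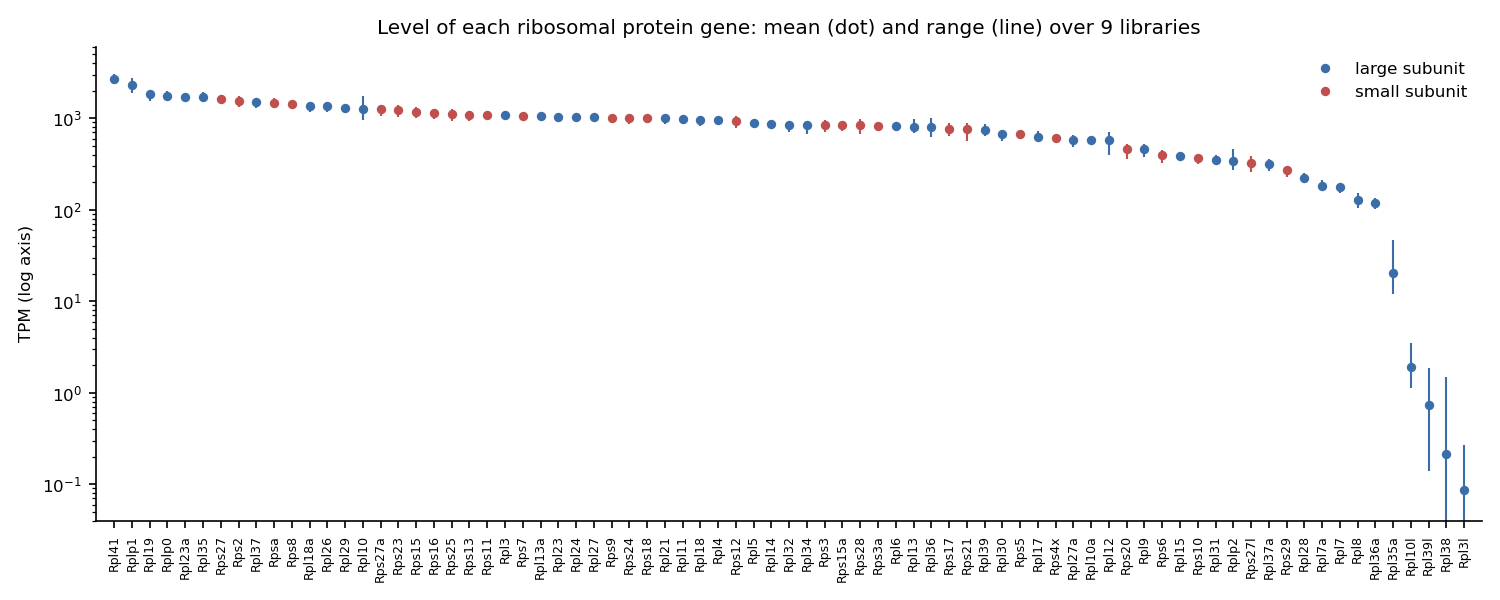
Mean level of each of the 77 members in TPM (log axis, dots) with the lowest and highest of 9 libraries (lines), ordered by mean and coloured by subunit. Lines that reach the lower edge include libraries at 0. Most members lie between 118 and 2715 TPM, and 5 lie at 20.3 TPM or below.

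The libraries held 23.9 to 43.1 M reads (M, 1e+06), fewest in basal P11. Ribosomal protein genes took 6.82, 6.80 and 6.12% of summed TPM in basal P11, P13 and P14. With 1 µM bavisant they took 7.25, 7.24 and 6.21%, and with 10 µM 7.13, 7.12 and 5.90%, in the same order. The group means were 6.58 ± 0.40, 6.90 ± 0.60 and 6.72 ± 0.71% (SD, n = 3), and these means differed by less than the spread within groups. Within P numbers the share at 1 µM minus basal was 0.43, 0.44 and 0.09 percentage points in P11, P13 and P14, higher in 3 of 3, and at 10 µM minus basal 0.30, 0.32 and -0.22. In each group P14 was lowest, and P11 and P13 lay close together. In bulk samples fewer cells of a type and less RNA per cell cannot be told apart.

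The same order was seen gene by gene in CPM (reads of a gene per 1e+06 reads of the library), scaled by the trimmed mean of M-values (TMM), where the median of all genes was near 0 in each library. Relative to each gene's mean over the 9 libraries, the median member lay at 0.03, -0.01 and -0.19 on the log2 scale in basal P11, P13 and P14. It lay at 0.15, 0.07 and -0.16 with 1 µM and at 0.14, 0.16 and -0.19 with 10 µM. Of 74 tested members, 65 were lowest in P14 in every group, against 17.1% of all tested genes, and those left over were Rpl7a, Rpl10l, Rpl12, Rpl13, Rpl17, Rpl35a, Rplp2, Rps15 and Rps27l. With the P number as a block in the fit, 69 of 74 members differed among P numbers at an adjusted p under 0.05 (edgeR's quasi-likelihood F test, adjusted over all genes), against 51.5% of all genes. This test was added after the low P14 values were seen. It left out Rpl7a, Rpl10l, Rpl35a, Rplp2 and Rps15. P11 against the mean of P13 and P14 called 51 members against 50.6% of all genes: 49 were higher, against 25.2% of all genes, and 2 lower, against 25.4%. The lower ones were Rpl10 and Rpl13. Scaling by library totals left 31 members called, and leaving out the 1 µM P11 library left 22. This contrast averages P13 with the low P14, so a member can be called higher without P11 lying above P13. Rpl11 was so called (adjusted p = 0.0297, edgeR, block), with mean deviations of 0.086 in P11, 0.095 in P13 and -0.181 in P14. By such means, 48 of 74 members were highest in P11 and 26 in P13.

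**Figure D3:**
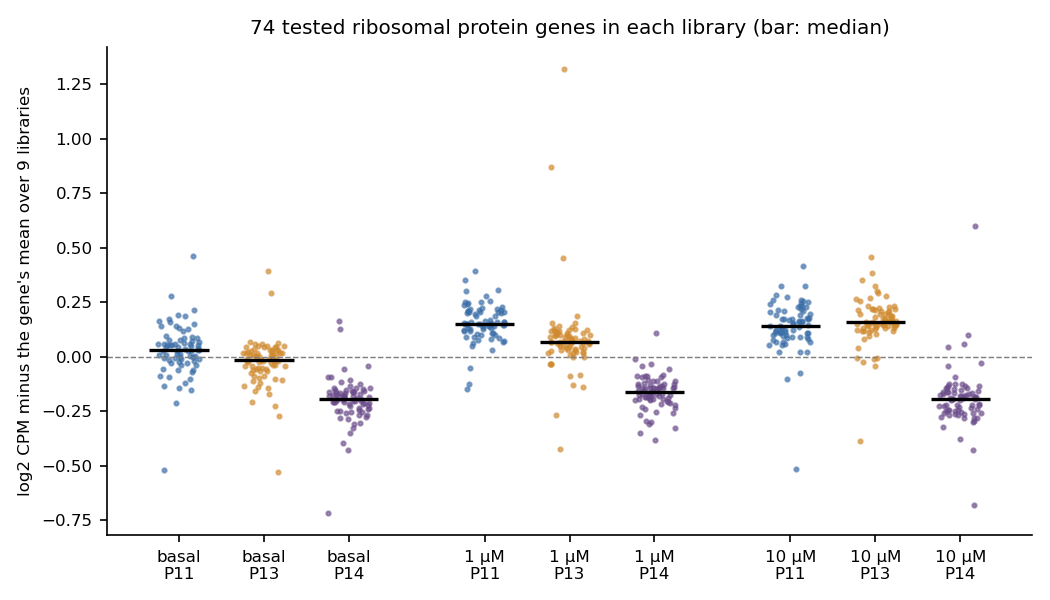
Log2 CPM of each of 74 tested members relative to its own mean over 9 libraries (vertical axis) in each library (horizontal axis, coloured by P number), with the median as a bar. The P14 medians lie at -0.19, -0.16 and -0.19, below every other library.

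Other markers moved with the P numbers. Markers of vascular and mural cells, of which 11 of 13 were in the file and none was at 0, summed to 395 to 555 TPM in P11, 135 to 300 TPM in P13 and 54.5 to 89.4 TPM in P14. The 10 astrocyte markers summed to 1436 to 1875 TPM in P11, 1788 to 2236 TPM in P13 and 2018 to 2483 TPM in P14, but 3 of them were called higher and 4 lower in P11 against the mean of P13 and P14 (edgeR, block), with a median log2 fold change of 0.06. In that contrast 25.2% of all genes were called higher and 25.4% lower. Of 9 tested vascular and mural markers 7 were higher and 1 was lower. Of 12 microglia markers none was higher and 9 were lower, and of 10 tested neuron markers 3 were higher and 5 lower. The 14 markers of the oligodendrocyte lineage, including Olig2, Sox10 and Mbp, were all present and summed to 36942 to 54818 TPM over the 9 libraries. In P11 against the mean of P13 and P14, 8 of these 14 were called higher and 3 lower, with a median log2 fold change of 0.23. The part of other cells in the ribosomal differences among P numbers was not tested.

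Rpl10 and Rpl12 differed most among P numbers. Rpl10, which joins the large subunit late in its maturation, had 414.7, 602 and 359.3 CPM in basal P11, P13 and P14. It had 443.1, 627.4 and 370 CPM with 1 µM, and 435.2, 629.6 and 353.2 CPM with 10 µM. P14 was lowest in every group, as in most members, and the P13 libraries lay above all of P11 and P14. By their means over the groups, 26 of 74 members were highest in P13. Rpl12, at the base of the stalk, ran the other way, with 172.9, 98.7 and 155.7 CPM in basal, 187.2, 106.4 and 153.6 CPM with 1 µM and 178.4, 108.9 and 152.6 CPM with 10 µM. Here P13 was low in every group. The difference among P numbers had an adjusted p of 8.65e-06 for Rpl10 and 1.86e-05 for Rpl12 (edgeR, with block). Over the P numbers the means of both genes spanned 0.78 on the log2 scale, where the median member spanned 0.32. Neither had whole-number counts in all libraries, which only 11 of 74 tested members had. Rpl12 was named after its values were seen.

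At 10 µM against basal, the question was whether the higher dose changed ribosomal protein messenger RNA. Without the block, 0 of 74 members passed the test (edgeR's quasi-likelihood F test, adjusted p under 0.05), against 0.00% of all genes. At an unadjusted p under 0.05 there were 808 genes (5.27%) and 1 member, Rps15, and DESeq2 called 64 genes (0.418%) with no member among them. The median member had a log2 fold change of 0.10, against -0.01 for all tested genes, and 71 of 74 members lay above 0, against 47.8% of all genes. With the block, 607 genes (3.96%) and 1 member, Rpl36, passed. At an unadjusted p under 0.05 the block gave 22 members (29.7%), all higher, against 22.4% of all genes in either direction, and DESeq2 with the block called 3 members, Rpl13, Rpl36 and Rps15, with 6.18% of all genes.

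Rpl36, a component of the large subunit, was the member that rose in the blocked fit. It had 69.3, 62.0 and 52.0 CPM in basal P11, P13 and P14, 89.1, 68.2 and 59.1 CPM with 1 µM and 93.3, 87.3 and 59.8 CPM with 10 µM. It was higher at 10 µM than in basal in 3 of 3 P numbers, but the groups overlapped, since 10 µM P14 lay below basal P11 and P13. The log2 fold change was 0.38 ± 0.07 (SE), a 1.30-fold difference, with an adjusted p of 0.0338 (edgeR, block). Without the block it was 0.39 ± 0.21 with an adjusted p of 1.00 (edgeR). With the block the call was lost without all P11 libraries (adjusted p = 0.126), without all P14 libraries (adjusted p = 0.165) and after removal of the trend over gene length (adjusted p = 0.0683). It was also lost on log2(TPM + 1) with limma (adjusted p = 0.0515) and in 8 of 9 blocked edgeR fits that each left out 1 library (adjusted p 0.0297 to 0.154, the lowest without 1 µM P13, where it was kept). In these 9 fits the log2 fold change was 0.29 to 0.45, and in the other settings tried 0.27 to 0.46.

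Rps15 lies in the head of the small subunit and had 250, 238.4 and 215.1 CPM in basal P11, P13 and P14. With 1 µM it had 290.4, 246.7 and 260.4 CPM, and with 10 µM 292, 323.2 and 257.2 CPM. It was the only member whose 10 µM libraries all lay above all basal libraries, a pattern held by 4.72% of all tested genes. No member had all 10 µM libraries below all basal ones (4.61% of all genes). The log2 fold change of Rps15 was 0.31 ± 0.08 (SE) with an adjusted p of 0.0606 in the blocked edgeR fit, and 0.892 without the block. It passed with DESeq2 and the block (adjusted p = 0.00292).

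Rpl13, a large subunit protein, had 183.5, 214.7 and 191.9 CPM in basal P11, P13 and P14, 194.6, 233.3 and 207.7 CPM with 1 µM and 215.5, 276.9 and 206.1 CPM with 10 µM. All 3 P numbers were higher at 10 µM than in basal, by 0.24 ± 0.06 on the log2 scale (adjusted p = 0.0600, edgeR, block). Rpl8 had 42.8, 47.5 and 41.7 CPM in basal, 49.9, 43.8 and 37.1 CPM with 1 µM and 58.4, 59.4 and 42.6 CPM with 10 µM. P11 and P13 were the high libraries at 10 µM, and P14 stayed near its basal value. The difference from basal was 0.26 ± 0.09 (adjusted p = 0.126, edgeR, block). The fitted value of Rpl35a, 0.65 ± 0.37, was higher than these, but rested on 1.12 to 2.79 CPM in the 6 libraries compared and had an adjusted p of 0.339. Rps2, Rpl14 and Rpl35, named after their values were seen, differed by 0.20 ± 0.07, 0.19 ± 0.05 and 0.20 ± 0.06, with adjusted p of 0.157, 0.0899 and 0.120 (edgeR, block).

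Members of the stalk did not share 1 pattern. Rplp0 had 1070, 921 and 826 CPM in basal P11, P13 and P14, 1136, 995 and 891 CPM with 1 µM, and 1134, 1071 and 868 CPM with 10 µM. Rplp1 had 501.5, 410 and 359.5 CPM in basal, 548, 444 and 388 CPM with 1 µM, and 542, 494 and 366 CPM with 10 µM. Both kept P14 lowest in each group, with differences from basal at 10 µM of 0.12 ± 0.05 and 0.14 ± 0.06 (adjusted p = 0.159 and 0.192, edgeR, block). Rplp2 had 49.3, 43.8 and 27.3 CPM in basal, 32.3, 29.8 and 33.7 CPM with 1 µM, and 37.3, 36.9 and 37.0 CPM with 10 µM. Basal P11 and P13 were its high libraries and basal P14 its low one, and the treated libraries lay between. Its difference at 10 µM was -0.09 ± 0.16 (adjusted p = 0.778, edgeR, block) and turned positive without basal P11 (0.07).

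Rpl5 and Rpl11 bind the 5S RNA and, when free, the p53 regulator Mdm2. Rpl5 had 465 to 500 CPM in basal, 467 to 519 CPM with 1 µM and 452 to 550 CPM with 10 µM, and Rpl11 had 221 to 253, 218 to 274 and 217 to 278 CPM. Their groups overlapped throughout. Rps6, the substrate of S6 kinases, had 122 to 144 CPM in basal, 123 to 160 CPM with 1 µM and 114 to 165 CPM with 10 µM. Rpsa, which also acts as a laminin receptor, had 645 to 840 CPM in basal and 679 to 869 CPM with 10 µM, a difference of 0.12 ± 0.05 (adjusted p = 0.195, edgeR, block). Rpl41 differed by 0.14 ± 0.05 and Rpl39, which lines the exit tunnel, by 0.17 ± 0.07 (adjusted p = 0.188 and 0.201, edgeR, block). Rps27 and its paralogue Rps27l were fitted at 0.11 ± 0.05 and -0.04 ± 0.06 (adjusted p = 0.258 and 0.765, edgeR, block), and the difference between them was not tested.

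Members were also counted by place in the ribosome in the blocked fit at 10 µM, with no test between places. The 13 tested members of the small subunit head all lay above 0, with a median of 0.11. The 8 tested members around the exit tunnel all lay above 0, with a median of 0.09. Both 5S RNA partners lay above 0, with a median of 0.05, as did 2 of 3 stalk members, with a median of 0.12. Neither of the 2 tested paralogues, Rpl10l and Rps27l, did, with a median of -0.12. Over whole subunits, 28 of 29 small and 42 of 45 large subunit members lay above 0, with medians of 0.09 and 0.10. In all, 70 of 74 members did so, against 47.2% of all genes, and those below 0 were Rpl9, Rpl10l, Rplp2 and Rps27l. Sets of genes that share libraries are not independent, and these counts describe the 9 libraries.

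**Figure D4:**
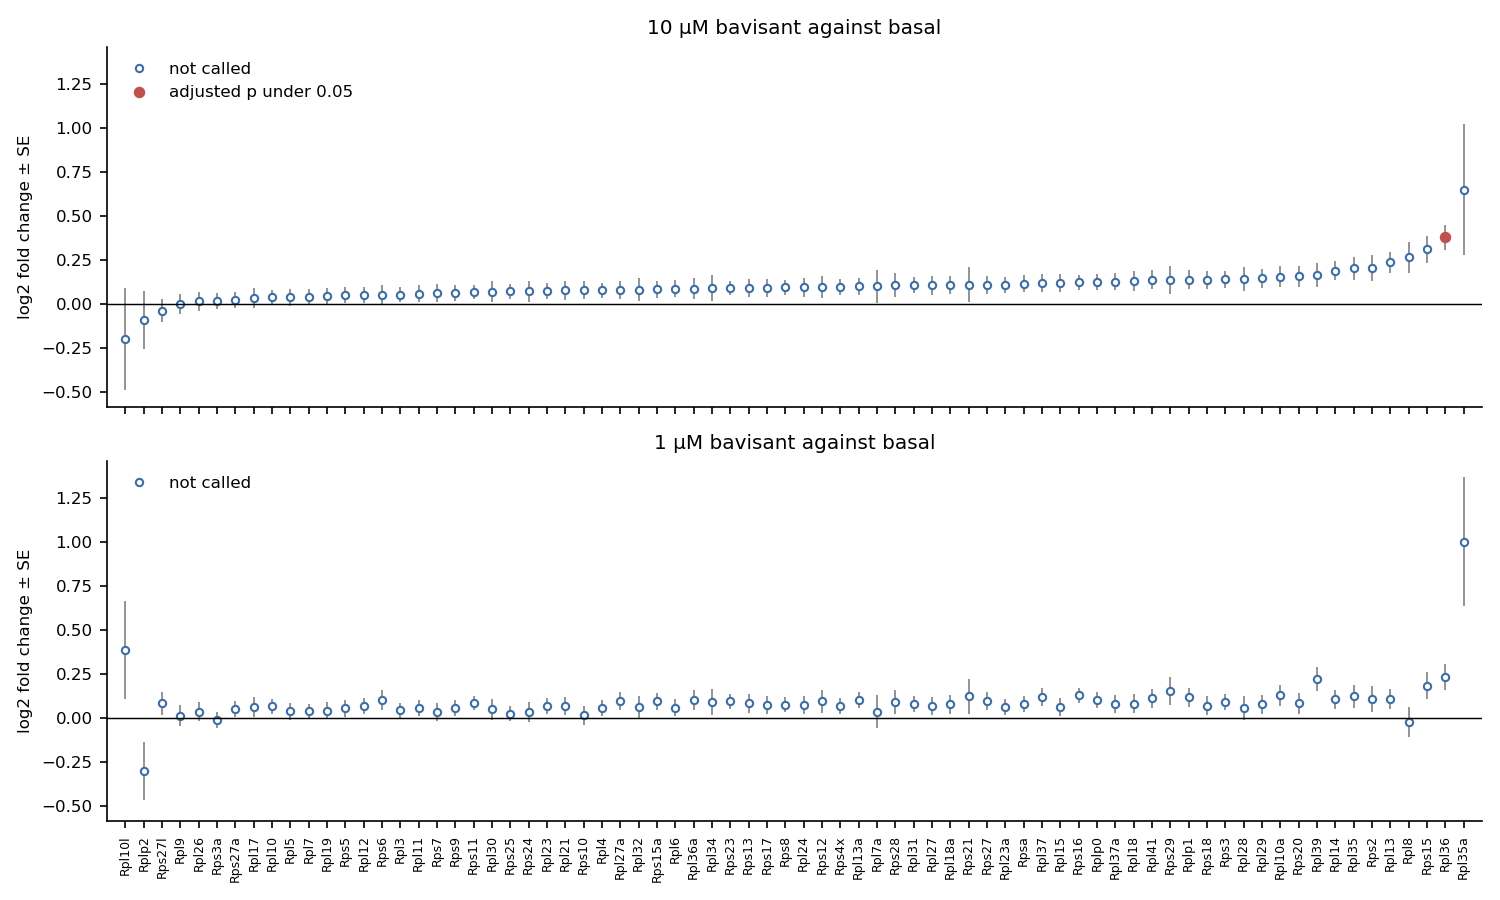
Log2 fold change with its SE (vertical axis) of 74 tested members from the edgeR fit with the P number as a block, at 10 µM (top) and 1 µM (bottom) against basal, in 1 order set by the 10 µM value. Only Rpl36 at 10 µM passes an adjusted p under 0.05, and most values lie slightly above 0.

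In these libraries the shift from basal was not of the same size in all 3 P numbers. In P11, 71 of 74 members were higher at 10 µM than in basal, with a median of 0.10 on the log2 CPM scale, and in P13, 72 of 74 with a median of 0.19. In P14, 33 of 74 were higher and the median was -0.01. Of all tested genes, 48.9, 46.0 and 50.5% were higher in P11, P13 and P14. Of 74 members, 32 were above basal in all 3 P numbers, against 20.5% of all genes. On log2(TPM + 1), 58, 58 and 13 of 74 members were higher in P11, P13 and P14, with medians of 0.05, 0.05 and -0.06. All genes were not counted within P numbers on that scale, so these counts cannot be read as particular to the members. Over the 9 libraries the median of all genes at 10 µM against basal was -0.07 on it. Each P number has 1 library per dose, so the difference between P numbers was not tested. Without all P14 libraries, a setting chosen after their values were seen, the median over members rose to 0.15.

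TPM and library totals moved members and all genes together, and removal of the length trend did not. At 10 µM against basal the limma fit on log2(TPM + 1) gave a median of 0.02 for members, 49 of 74 of them above 0, and -0.07 for all genes. Scaling by library totals gave 0.05 and -0.06. The median member thus lay 0.09 above the median gene on log2(TPM + 1) and 0.11 above it with library totals, where TMM scaling gave 0.11. Members are short: 73 of 74 were shorter than the median tested gene, and the median member had 21.9% of its length, as read from the ratio of counts to TPM. The trend over gene length was then removed from the blocked fold changes. At 10 µM the median member then lay at 0.04, with 62 of 74 members above 0, and the median of all genes at 0.05. The median member thus lay 0.01 below the median gene, where the blocked fit before this step had it 0.10 above. The share of all genes above 0 was not counted after this step. At 1 µM the same step gave 0.02 for members, with 46 of 74 above 0, and -0.01 for all genes.

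**Figure D5:**
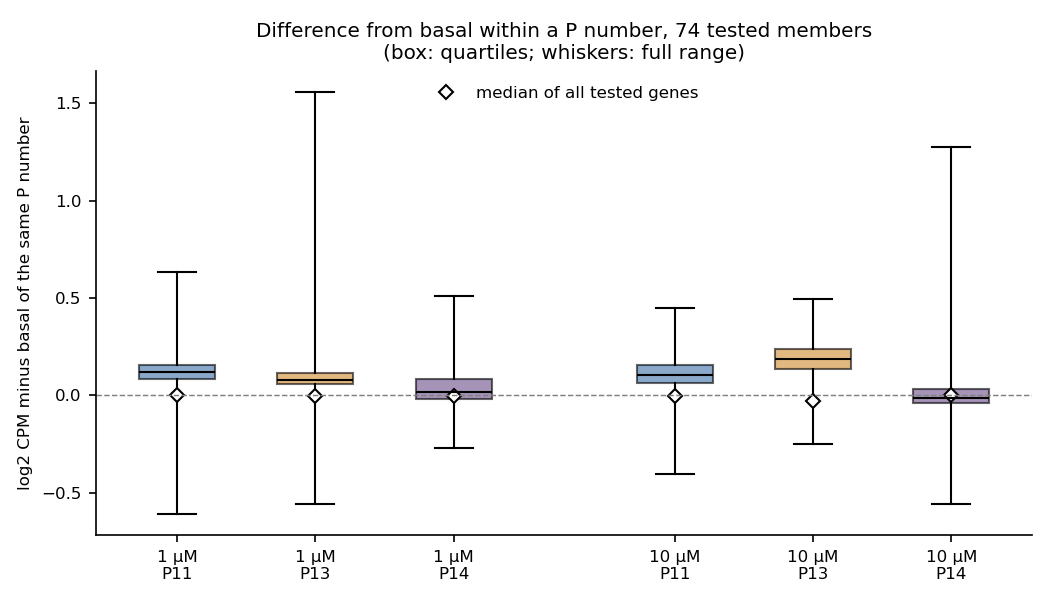
Difference in log2 CPM from the basal library of the same P number (vertical axis) for 74 tested members, at 1 µM and 10 µM in each P number, as boxes (quartiles, whiskers over the full range), with the median of all tested genes as diamonds. The boxes of P11 and P13 lie above 0, with medians of 0.08 to 0.19, and those of P14 lie around 0.

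At 1 µM against basal, 0 of 74 members passed the test with or without the block (edgeR), against 0.00% of all genes in both. At an unadjusted p under 0.05 there were 81 genes (0.529%) and 1 member, Rpl35a, without the block, and 582 genes (3.80%) and 6 members with it: Rpl35a, Rpl36, Rpl37, Rpl39, Rps15 and Rps16. DESeq2 called 5 genes (0.0326%), or 8 with the block (0.0522%), and no member. The median over members was 0.08 and 71 of 74 lay above 0, against 48.2% of all genes.

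Of the 6 members at an unadjusted p under 0.05 in the blocked fit, Rpl39 and Rpl36 had the smallest p. Rpl39 had 63.5, 71.8 and 59.03 CPM in basal P11, P13 and P14 and 81.3, 78.7 and 66.4 CPM with 1 µM, with P14 lowest in both groups, and its difference was 0.22 ± 0.07. Rpl36 and Rps15 differed by 0.23 ± 0.07 and 0.18 ± 0.07, and Rps16 and Rpl37, named after their values were seen, by 0.13 ± 0.04 and 0.12 ± 0.05. Rpl35a had the largest value of the 6, 1.00 ± 0.37, a 2.00-fold difference. The adjusted p was 1.00 for each of the 6 genes (edgeR, block). It was the only member whose 1 µM libraries all lay above all basal ones (1.48% of all genes; none had them all below, as 1.44% of all genes did), at 1.62 to 4.59 CPM against 1.12 to 1.52 CPM, with 1 high library, P13. Rplp2 was lower in P11 and P13 and higher in P14, with -0.30 ± 0.16 (adjusted p = 1.00, edgeR, block). Within P numbers the medians over members were 0.12 in P11, 0.08 in P13 and 0.02 in P14. In the same order 72, 72 and 45 of 74 members were higher, against 50.3, 48.7 and 49.5% of all genes.

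At 10 µM against 1 µM, 0 of 74 members passed with or without the block, against 0.00% of genes without it and 4.30% with it (659 genes). At an unadjusted p under 0.05 there was 1 member with the block, Rpl8, against 21.2% of all genes, and none without it, against 4.68%. Rpl8 differed by 0.29 ± 0.09 (adjusted p = 0.103, edgeR, block) and was the member called by DESeq2 with the block (6.44% of all genes), while DESeq2 without it called no member (0.431% of all genes). Rpl36 and Rps15 differed by 0.15 ± 0.07 and 0.13 ± 0.07 (adjusted p = 0.287 and 0.372, edgeR, block). The median over members was 0.02 with 54 of 74 above 0 (49.3% of all genes), and the median of all genes was -0.00. It turned to -0.04 with library totals, where all genes had -0.06, and to -0.05 on log2(TPM + 1), where all genes had -0.07, so the median member lay 0.02 above the median gene on each of these 3 scales. In 2 other settings the median member lay below the median gene. After the trend over gene length was removed from the blocked fit, they lay at 0.034 and 0.060. On log2(TPM + 1) without the filter they lay at -0.047 and -0.043. The comparisons with basal share the basal libraries, and each is given by its own values.

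Other parts of the translation machinery were counted in the blocked fit at 10 µM against basal, by lists that were fixed with earlier results of these data known, in a fit where 3.96% of all genes passed and 47.2% lay above 0. Of 74 tested mitochondrial ribosomal protein genes, whose products form the ribosome inside mitochondria, 67 lay above 0 with a median of 0.12, and 1, Mrps10, passed, at 0.32 ± 0.07 (adjusted p = 0.0472, edgeR). Of 7 tested genes listed as ribosomal proteins outside the naming rule, 5 lay above 0, with a median of 0.04, and none passed. Those below 0 were Fau, at -0.76 ± 0.35, and Rps4y2, at -0.23 ± 0.19 (adjusted p = 0.249 and 0.498, edgeR). Of 38 initiation factor genes 32 lay above 0, with a median of 0.05, and none passed. Of 11 elongation factor genes 7 lay above 0, with a median of 0.04. The 1 that passed was Eef1a2, which fell by 0.41 ± 0.08 (adjusted p = 0.0389, edgeR) and carries aminoacyl-tRNA to the ribosome in neurons and muscle. Of 76 genes of ribosome assembly and RNA polymerase I 56 lay above 0, with a median of 0.04, and Heatr3, which helps bring Rpl5 into the nucleus, rose by 0.21 ± 0.04 (adjusted p = 0.0344, edgeR). Of 25 genes that control ribosomal protein synthesis 14 lay above 0, with a median of 0.03, and Cdkn1a, a p53 target that halts the cell cycle, fell by 0.46 ± 0.07 (adjusted p = 0.0185, edgeR). At 1 µM none of these lists had a gene past the test.

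Markers of cell types were read beside these results in the same fit. All 14 markers of the oligodendrocyte lineage lay above 0 at 10 µM, with a median of 0.30, and 7 passed, among them the myelin gene Mbp (0.54 ± 0.07, adjusted p = 0.0125, edgeR). They summed to 37951 to 42205 TPM in basal, 36942 to 43095 TPM with 1 µM and 49846 to 54818 TPM with 10 µM. Of 10 tested neuron markers 3 passed as lower, of 10 astrocyte markers 2, of 12 microglia markers 2 and of 9 vascular and mural markers 1. Microglia markers summed to 967 to 1389 TPM in basal and 917 to 1079 TPM with 10 µM, and no marker in the file was at 0 in a whole group. The part of the makeup of the cultures in the ribosomal protein values was not tested.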

How the data were processed

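The authors deposited a table of expected counts (estimated counts per gene, about 93% of them whole numbers, not scaled between libraries) and a second table in TPM, which accounts for gene length. The tools were FastQC, Trimmomatic, DRAGEN and Picard with build rn6, per the submitters' processing notes. For versions, the counter, its strand setting and the annotation, no entry is given in the sources used here. Per the labels' protocols, libraries came from a stranded mRNA kit and were read as 75 bases on a NextSeq 500.

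Expected counts were rounded. The main test was edgeR 4.0.16 in R 4.3.3 (quasi-likelihood F test, all 9 libraries, TMM, filterByExpr with a count minimum of 10 and a total minimum of 15, Benjamini-Hochberg over 15321 genes, threshold 0.05). The SE is the log2 fold change over the square root of F. DESeq2 1.42.0 and limma 3.58.1 (log2(TPM + 1), TPM of at least 1 in 3 libraries) were alternatives. CPM used TMM, and values on the log2 CPM scale a prior count of 2. The steps were tested on simulated data.

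Libraries with the same P number deviated from their group means together in all 9 pairs (correlation 0.319 to 0.772). The 18 pairs that differed in both group and P number had -0.708 to 0.194. Deviations sum to 0 within a group, so high values in the first pairs push down those of the second. A block for the P number was fitted as an alternative. Within groups, libraries differed beyond counting noise, with a chi-square over its degrees of freedom of 24.3 to 119.

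The members, lists and tests were chosen with earlier results of these data known. Named members were those called, the 5 highest and 5 lowest by TPM and the 5 largest rises at 10 µM in the blocked fit. The only members that fell there, Rpl9, Rpl10l, Rplp2 and Rps27l, were also named. A fixed core held stalk, 5S particle, paralogue and other genes, among them Rpl36, Rps6 and Rpl41. Not all named members are reported here. No genome was used, so GC content was not analysed here.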

Additional observations from a re-analysis of the deposited data

How the results depend on the processing

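The reported tests have no block unless named; with the replicate block the members called at 10 µM against basal went from 0 to 1. That count was also 1 with the block and DESeq2 size factors, library totals, TMM without the members, a mean of at least 100 reads or summed rows, 3 with the block and DESeq2, and 0 to 2 over the blocked fits that left out 1 library; the 2 were Rpl36 and Rps15, without 1 µM P13. At 10 µM against 1 µM, DESeq2 with the block called 1. The block changed no other call of a member. P11 against the mean of P13 and P14 called 51 members, 31 with library totals and 22 to 60 over fits that left out 1 library. The median over members at 10 µM was 0.038 to 0.216 over fits without the block that left out 1 library, highest without 10 µM P14. At 1 µM it was 0.0083 to 0.170, lowest without 1 µM P11 or basal P14 and highest without 1 µM P14, and 0.016 with the block and the length trend removed. Between doses it was -0.068 to 0.135, lowest without 1 µM P14 and highest without 10 µM P14, and -0.048 on log2(TPM + 1), with or without the block, -0.047 without the filter and -0.048 on log2(TPM + 0.1), where the median of all genes was -0.067, -0.043 and -0.073. The 2 members Rplp2 and Rps27l, named at 10 µM, turned sign. Rplp2 was 0.073 without P11 (0.090 with the block) and -0.330 to 0.060 over fits without the block that left out 1 library, and with the block 0.073 without basal P11 and 0.019 without basal P13. Rps27l was 0.0033 without P11, 0.026 without P14 (0.033 with the block) and -0.121 to 0.074 over fits that left out 1 library, and with the block 0.032 without basal P14. The cause of these changes was not tested. Leaving out a library leaves a group of 2, fitted with the spread of all groups. Depth limits Rpl35a and Rpl10l, and 3 members fell below the count filter.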
